A study of Mus musculus with 25 samples.

Results

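Mptx1 and Mptx2 are the mucosal pentraxins of the mouse, and they are 2 of the 35723 genes with a count in the jejunal RNA-seq data described here. They were taken by symbol from the deposited FPKM table. The pair was chosen by its measured levels in the EW and Control libraries, where the 2 paralogs had moved in opposite directions. That contrast is therefore given as a description and carries no test. The study sequenced jejunum from 25 libraries in 5 groups of 5. The pups were allotted to their groups at postnatal day 14. Control pups suckled normally and were taken at day 21. The other 4 groups were weaned early, at day 15: EW with no supplement named, EW+HMOs with 2'-FL and LNnT together, EW+2'-FL, and EW+LNnT. 2'-FL, or 2'-fucosyllactose, is lactose carrying a fucose, and LNnT, or lacto-N-neotetraose, is lactose extended by N-acetyllactosamine; both are human milk oligosaccharides. No strain, dose or day of collection for the early-weaned pups is given in the sources used here. Early weaning and any difference in age at collection therefore cannot be told apart from these labels. Nothing in the labels states that the 5 libraries of a group are 5 animals, so every p-value covers the spread among these samples alone, and part of that spread may be technical. Each early-weaned group held libraries with Xist and no Y-linked transcripts and others with the reverse. Each of these groups therefore came from more than a single pup, but how many is not given.

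Pentraxins are secreted pattern-recognition proteins that assemble into rings and bind microbial surfaces and cell debris in a calcium-dependent way. The family holds the short serum pentraxins Crp (C-reactive protein) and Apcs (serum amyloid P component), the long pentraxin Ptx3, which cells make locally during inflammation, and the neuronal pentraxins Nptx1, Nptx2 and Nptxr, which act at synapses. Bound pentraxins can recruit the complement protein C1q and engage Fc gamma receptors on phagocytes. Mptx2 is known from mouse single-cell work as a gene of Paneth cells, the crypt-base cells that release lysozyme and defensins. A mucosal pentraxin was first described in the rat colon, where its transcript responds to dietary haem.

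Both genes lie on chromosome 1 of GRCm39 and are read from opposite strands. Mptx2 (ENSMUSG00000079180) spans chr1:173101949-173105344 on the minus strand, and Mptx1 (ENSMUSG00000026531) spans chr1:174158084-174160439 on the plus strand. They are 1053 kb apart, with 20 other genes of the table between them, 11 of which are interferon-inducible genes with symbols starting Ifi. The 2 stretches upstream of their starts are shown because the paralogs moved in opposite directions and yet share most of these letters. The sequences are RefSeq promoters of GRCm38.p6, each written 5′ to 3′ on the strand of its gene, and capitals mark the bases that differ from the other gene or have no partner there. They cover chr1:174330283-174330517 on the plus strand for Mptx1, ending 1 base before its RefSeq start, and chr1:173277778-173278006 on the minus strand for Mptx2, ending 22 bases before its start.
Mptx1: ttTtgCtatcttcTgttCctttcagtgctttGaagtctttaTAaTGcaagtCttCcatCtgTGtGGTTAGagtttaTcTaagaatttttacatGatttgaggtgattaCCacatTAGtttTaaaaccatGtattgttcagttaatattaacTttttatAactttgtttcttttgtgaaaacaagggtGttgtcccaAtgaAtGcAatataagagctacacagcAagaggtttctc
Mptx2: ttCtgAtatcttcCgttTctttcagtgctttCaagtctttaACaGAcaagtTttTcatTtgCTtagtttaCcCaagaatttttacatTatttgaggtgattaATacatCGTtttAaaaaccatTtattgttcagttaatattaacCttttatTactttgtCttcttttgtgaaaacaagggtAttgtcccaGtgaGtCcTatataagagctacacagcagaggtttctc
Of 236 aligned columns, 197 (83.5%) were identical and 8 were gaps. The longest run shared by both was 21 bases, tattgttcagttaatattaac, which ends 84 bases upstream of the Mptx1 start and 105 bases upstream of the Mptx2 start. This run holds GTTAAT, a part of the palindrome that the epithelial factor HNF1 binds, on both strands. Motifs were searched on both strands in the 250 bases before each start. GTTAAT had 2 matches in each gene and at least 1 in 6.43% of all 32851 mouse promoters searched. TATAA, the core of a TATA box, had 5 matches in Mptx1, the nearest 29 bases upstream, and 1 in Mptx2, 49 bases upstream. It was present in 22.8% of all promoters. The nearest Mptx1 match and the Mptx2 match align with each other in the stretches shown. Their distances differ mainly because the Mptx2 stretch ends 22 bases before its start and the Mptx1 stretch 1 base before. TTTAT, a core of CDX factors, had 3 matches in Mptx1 and 2 in Mptx2 (37.3% of all promoters). GATAA had 1 match in Mptx1 and none in Mptx2 (22.6% of all promoters). The STAT palindrome TTCNNNGAA was in neither window (7.02% of all promoters).

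The transcripts are closer still, which bears on every value below. In GENCODE vM21 each gene has 1 transcript of 2 exons, with 660 coding bases in each, and the coding sequences are 92% identical. The longest run shared by the transcripts is 112 bases, shorter than the 150-base reads given in the labels' protocols. The transcripts of all other genes of that annotation were searched on their own strand, without the longest ones. None of those searched shares a run of 50 bases with either. How reads that match both paralogs were assigned was not given in the sources used here. As a measured fact on this point, the 4 early-weaned groups together held from 16 to 11822 counts of Mptx2 per library against 35 to 156 counts of Mptx1. A part of the Mptx1 counts in those libraries coming from Mptx2 reads was not tested.

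Libraries held 58.7 to 89.6 M counts, and the Spearman correlation between libraries of a group ranged from 0.924 to 0.983. Against the jejunal label, the lactase gene Lct had a median of 322 FPKM and Fabp2 of 1713, while the ileal Fabp6 never passed 0.186 and the ileal Slc10a2 never 0.941. The colonic Car1 reached at most 0.0362 FPKM and the colonic Aqp8 1.86, and the duodenal Pdx1 had a median of 6.73 and a highest value of 12.7. All 6 duodenal genes tested had a lower estimate in EW than in Control, with a median log2 difference of -0.80 against 0.02 over all genes. None was called, beside 0.953% of all genes. Cybrd1 was called lower (-2.29 ± 0.50, SE) once the 3 libraries named next were left out, beside 2.74% of all genes. The part of the position sampled along the gut was not tested. FPKM counts fragments per kilobase of gene, scaled to the size of the library, so that genes of different length can be compared. The Paneth cell lysozyme Lyz1 had a median of 718 FPKM. Replicate 1 of EW+2'-FL and replicates 1 and 2 of EW+LNnT stood apart from the rest on the first principal component, with 8.98% to 9.57% mitochondrial counts against at most 7.93% in the others. They are named wherever they bear on a value. Xist without Y-linked transcripts was found in 4 Control libraries and in 7 of the 20 early-weaned ones, and the fifth Control library, replicate 2, held both, at 214 and 78.1 CPM, a count scaled to the size of the library.

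Mptx1 was the more abundant mucosal pentraxin of the suckling jejunum and was lower in every early-weaned library. In Control replicates 1 to 5 its level was 9.99, 6.04, 8.91, 6.43 and 8.96 CPM, from 523 to 811 counts. In EW replicates 1 to 5 it was 1.05, 0.764, 0.542, 1.28 and 1.42 CPM, from 46 to 131 counts. The lowest Control library therefore lay above the highest EW library, and the group means were 8.07 ± 1.73 and 1.01 ± 0.363 CPM (SD, n = 5 each). On FPKM the means were 9.72 ± 2.38 and 1.21 ± 0.471. The fitted log2 difference, EW minus Control, was -2.99 ± 0.30 (SE), a 7.95-fold lower level. Of all genes tested, 4.97% were lower in EW with no overlap between these 2 groups. Nothing is read from that share, since this contrast chose the genes.

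Mptx2, the Paneth cell paralog, went the other way and was far less even. In Control replicates 1 to 5 its level was 1.05, 3.71, 0.788, 0.270 and 0.912 CPM, from 22 to 327 counts. In EW replicates 1 to 5 it was 2.56, 5.14, 24.9, 24.5 and 29.8 CPM, from 161 to 2740 counts. Replicates 3, 4 and 5 of EW formed a high cluster, replicate 2 was intermediate, and replicate 1 lay below Control replicate 2, so the groups overlapped. Means were 1.35 ± 1.35 CPM in Control and 17.4 ± 12.6 CPM in EW (SD, n = 5 each), or 1.62 ± 1.62 and 21.4 ± 15.8 FPKM. The fitted log2 difference, EW minus Control, was 3.68 ± 1.11 (SE), a 12.9-fold higher level. In whole jejunum, fewer cells of a type and less RNA per cell cannot be told apart, and this holds for both genes.

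**Figure D1:**
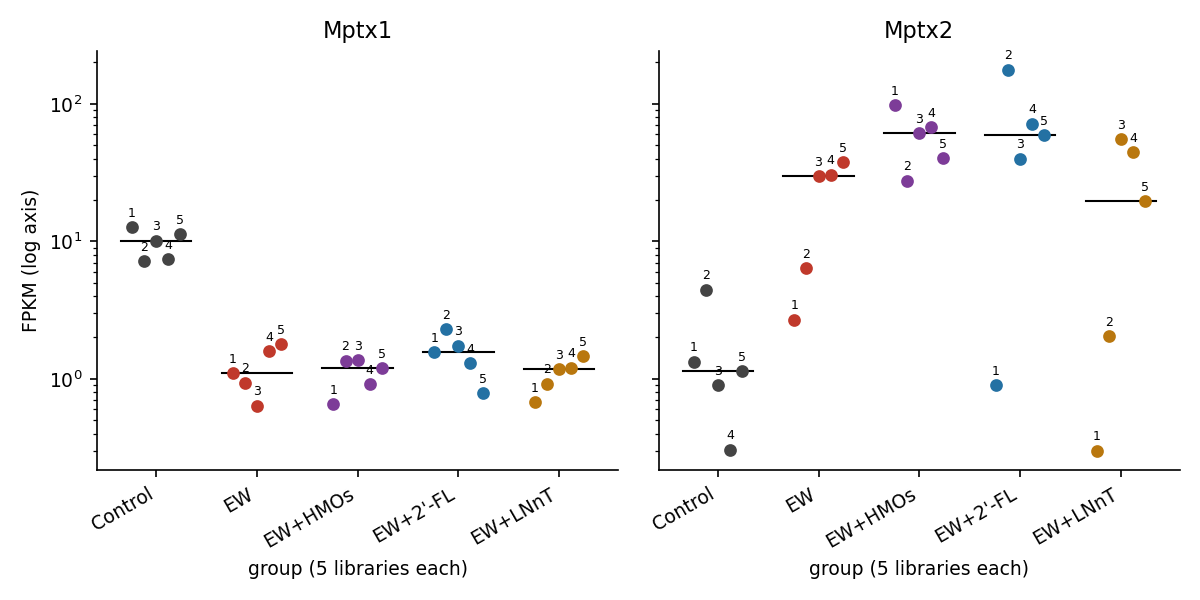
FPKM of Mptx1 (left) and Mptx2 (right) on a log axis in each of the 25 libraries, by group; points are libraries numbered by replicate and bars are group medians. Mptx1 was higher in the 5 Control libraries than in all 20 early-weaned libraries, while Mptx2 was spread widely within EW, EW+2'-FL and EW+LNnT.

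In the supplemented groups Mptx1 stayed at the low level of EW. In EW+HMOs replicates 1 to 5 it was 0.584, 1.23, 1.22, 0.799 and 1.02 CPM. The EW+2'-FL libraries had 1.50, 1.67, 1.35, 1.15 and 0.686 CPM. In EW+LNnT it was 0.705, 0.952, 1.03, 0.972 and 1.20 CPM. All 3 groups overlapped EW, and all 20 early-weaned libraries were below the lowest Control library. Group means were 0.973 ± 0.281 CPM for EW+HMOs, 1.27 ± 0.381 for EW+2'-FL and 0.973 ± 0.180 for EW+LNnT (SD, n = 5 each). The shares of all genes that lay lower than every Control library were 8.24%, 3.66% and 5.97% in the 3 groups. Ordered by mean, Control came first, followed by EW+2'-FL, EW, EW+LNnT and EW+HMOs, and only the step below Control was larger than the spread within groups.

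Mptx2 reached its highest levels in supplemented groups, but not in all of their libraries. In EW+HMOs replicates 1 to 5 it was 86.2, 24.9, 54.7, 57.9 and 34.0 CPM, so that all 5 lay above every Control library, as did 7.9% of all genes. The EW+2'-FL libraries had 0.863, 127, 30.5, 63.0 and 51.3 CPM, and replicate 2 gave the highest value of the study, 11822 counts. In EW+LNnT it was 0.322, 2.08, 48.5, 35.7 and 15.9 CPM. Replicate 1 of EW+2'-FL and replicates 1 and 2 of EW+LNnT, the 3 libraries that stood apart, were within the range of Control. Of the 20 early-weaned libraries 16 exceeded the highest Control library, the exceptions being these 3 and EW replicate 1. Pancreatic acinar genes made up 0.303% of counts in EW replicate 1 and 1.24% and 0.398% in EW+LNnT replicates 1 and 2. They made up 0.000853% in EW+2'-FL replicate 1, 0.446% in EW+2'-FL replicate 5 and 0.951% in Control replicate 3. No other library passed 0.1%. The part of pancreatic RNA in the level of Mptx2 was not tested. Group means were 51.5 ± 23.8 CPM for EW+HMOs, 54.5 ± 46.8 for EW+2'-FL and 20.5 ± 21.1 for EW+LNnT (SD, n = 5 each). Leaving out the 3 libraries, the means were 67.9 ± 41.5 CPM for EW+2'-FL (n = 4) and 33.4 ± 16.4 for EW+LNnT (n = 3). Ordered by mean, EW+2'-FL came first, followed by EW+HMOs, EW+LNnT, EW and Control. The step from EW+HMOs to EW+LNnT was larger than the SD of either group, but neither it nor any other difference of Mptx2 between 2 early-weaned groups passed the edgeR test.

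The supplements were first set against EW, the question being whether the genes moved with either oligosaccharide, or with both, after early weaning. The EW libraries are among those that chose the genes, so these differences are not independent of that choice. Neither gene passed the test, edgeR's quasi-likelihood test with Benjamini-Hochberg adjustment over all 22131 genes tested. For Mptx1 the log2 difference from EW was -0.06 for EW+HMOs (95% interval -0.64 to 0.52), 0.33 for EW+2'-FL (-0.25 to 0.90) and -0.06 for EW+LNnT (-0.63 to 0.52). For Mptx2 it was 1.57 for EW+HMOs (-0.53 to 3.66), 1.65 for EW+2'-FL (-0.45 to 3.75) and 0.24 for EW+LNnT (-1.81 to 2.29). The 6 adjusted p-values were between 0.965 and 1. The Mptx1 intervals leave room for changes of less than 1 log2 unit, whereas those of Mptx2 reach above 2 and 3 log2 units. Of all genes, 0% were called in EW+HMOs against EW (921 at an unadjusted p under 0.05), 0% in EW+2'-FL against EW (1199 unadjusted) and 0.172% in EW+LNnT against EW. DESeq2 called 51 and 41 genes in the first 2, without Mptx1 or Mptx2. Without the 3 libraries apart, the Mptx2 differences from EW were 1.57, 1.96 and 0.93 in the same order, and the smallest adjusted p was 0.285.

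Differences among the supplemented groups share no library with the contrast that chose the genes. For Mptx1 the log2 difference was -0.39 (-0.96 to 0.19) between EW+HMOs and EW+2'-FL and -0.00 (-0.58 to 0.57) between EW+HMOs and EW+LNnT. Between EW+2'-FL and EW+LNnT, the fucosylated and the unfucosylated oligosaccharide, Mptx1 differed by 0.38 (-0.20 to 0.96) and Mptx2 by 1.41 (-0.68 to 3.50). For Mptx2 the other 2 differences were -0.08 (-2.13 to 1.96) and 1.33 (-0.75 to 3.41). None passed the edgeR test, with adjusted p-values between 0.624 and 0.997. The shares of all genes called were 0%, 0.416% and 0% for EW+HMOs against EW+2'-FL, EW+HMOs against EW+LNnT and EW+2'-FL against EW+LNnT, with 2369 and 1884 genes at an unadjusted p under 0.05 in the first and the last, where DESeq2 called 147 and 67. A contrast chosen after seeing the data asked whether both oligosaccharides together differed from the sum of each alone. It gave -0.33 ± 0.40 (SE) for Mptx1 and -0.32 ± 1.39 for Mptx2 on the log2 scale, with edgeR adjusted p-values of 0.779 and 0.949 (0.845% of all genes called).

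Against Control, each supplemented group showed the same split as EW, with the same 5 Control libraries that had chosen the genes, so these are not independent repeats. The log2 difference of Mptx1 was -3.05 ± 0.30 (SE) for EW+HMOs, -2.66 ± 0.29 for EW+2'-FL and -3.05 ± 0.30 for EW+LNnT. These had edgeR adjusted p-values of 5.38e-06, 1.90e-05 and 5.65e-06. For Mptx2 it was 5.25 ± 1.19 for EW+HMOs, 5.33 ± 1.20 for EW+2'-FL and 3.92 ± 1.12 for EW+LNnT, with edgeR adjusted p-values of 0.0254, 0.0192 and 0.0306. The share of all genes called was 1.85% for EW+HMOs, 2.54% for EW+2'-FL and 10.6% for EW+LNnT. The Mptx1 calls held in every alternative run, including each library left out in turn. The Mptx2 calls did not: leaving out any of Control replicates 1, 3, 4 and 5 ended all 3, with edgeR adjusted p-values of 0.0515 to 0.0897 and log2 differences of 3.66 to 5.25. Leaving out Control replicate 2 kept all 3 calls, at 6.09, 6.17 and 4.76. Leaving out EW+HMOs replicate 1 ended the EW+HMOs call (adjusted p = 0.0552), and leaving out EW+LNnT replicate 3 ended the EW+LNnT call (adjusted p = 0.0624). Without the 3 libraries apart, the calls remained, at 5.24, 5.63 and 4.61, with edgeR adjusted p-values of 0.000881, 0.000899 and 0.00540.

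**Figure D2:**
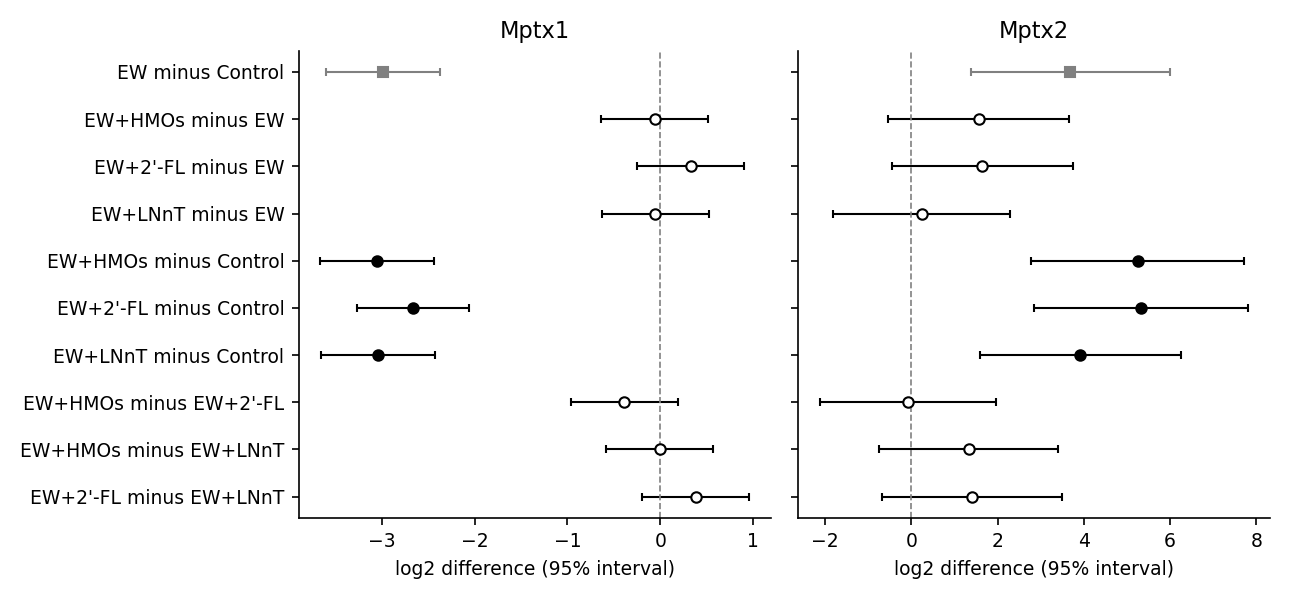
Fitted log2 differences of Mptx1 (left) and Mptx2 (right) for each of the 10 pairs of groups, with 95% intervals from the edgeR fit. Filled circles passed the adjusted threshold of 0.05, open circles did not, and the grey square marks the contrast that chose the genes, which was not tested; the intervals of Mptx2 are several log2 units wide.

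The balance of Xist and Y-linked transcripts differed between Control and the other groups, and Mptx1 was low in early-weaned libraries of either kind. In the 7 early-weaned libraries with Xist and no Y-linked transcripts, Mptx1 was 0.542 to 1.67 CPM, against 6.43 to 9.99 CPM in the 4 such Control libraries. In the 13 early-weaned libraries with Y-linked transcripts and no Xist, Mptx1 was 0.584 to 1.50 CPM. Mptx2 was 0.322 to 127 CPM in the former and 0.863 to 86.2 CPM in the latter, against 0.270 to 1.05 CPM in the 4 Control libraries. When the Y-linked share of counts entered the fit as a term, the edgeR log2 differences from Control were -3.08, -2.70 and -3.07 for Mptx1 and 5.31, 5.38 and 3.98 for Mptx2. All had edgeR adjusted p-values of 0.0462 or less, with the same Control libraries that chose the genes. In Control only replicate 2 held Y-linked transcripts, so this balance and feeding cannot be fully told apart.

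The balance of the 2 transcripts differed between the Control libraries and most early-weaned ones. The pair was chosen for moving in opposite directions between EW and Control. The shift in ratio between those 2 groups was therefore set in advance and is only described. On FPKM, which sets genes of unequal length side by side, Mptx1 exceeded Mptx2 in all 5 Control libraries, by 1.62-fold in replicate 2 and by 9.50-fold, 11.2-fold, 24.3-fold and 9.84-fold in replicates 1, 3, 4 and 5. In EW, Mptx2 exceeded Mptx1 by 2.45-fold, 6.77-fold, 46.8-fold, 19.2-fold and 21.1-fold in replicates 1 to 5. In EW+HMOs the excess of Mptx2 was 149-fold, 20.4-fold, 45.1-fold, 74.0-fold and 33.6-fold. Mptx2 was thus the more abundant transcript in all 5 libraries of both groups. It was lower than Mptx1 in EW+2'-FL replicate 1, at 0.576 of its level, and 22.9-fold to 76.7-fold higher in the 4 others of that group. In EW+LNnT it was 0.441 of Mptx1 in replicate 1, 2.22-fold in replicate 2 and 13.4-fold to 47.3-fold in the rest. The log2 ratio averaged -3.07 ± 1.44 in Control and 3.65 ± 1.65 in EW (SD, n = 5 each). With supplements it averaged 5.67 ± 1.10 (EW+HMOs), 4.40 ± 2.99 (EW+2'-FL) and 2.90 ± 2.87 (EW+LNnT). Without the 3 libraries apart it averaged 5.70 for EW+2'-FL and 4.84 for EW+LNnT. The 2 paralogs together had a median of 11.6 FPKM in the Control group. It was 30.5 for EW, 62.7 for EW+HMOs, 60.1 for EW+2'-FL and 21.0 for EW+LNnT. In the 3 libraries apart that sum was 2.47, 0.978 and 2.96 FPKM, below the lowest Control library, at 7.73. EW replicates 1 and 2, at 3.80 and 7.30 FPKM, were below it too.

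**Figure D3:**
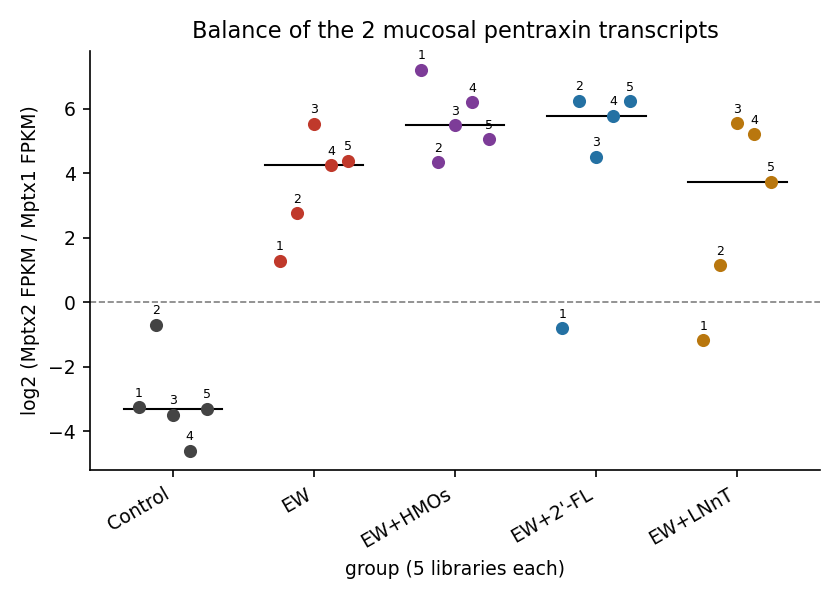
Log2 of the Mptx2 to Mptx1 FPKM ratio in each library by group, numbered by replicate, with bars at group medians and a dashed line at equal levels. All 5 Control libraries lay below the line; EW+2'-FL replicate 1 and EW+LNnT replicate 1 were the early-weaned libraries that did too.

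The paralogs also differed in how evenly they were expressed inside a group. The within-group SD of log2 CPM was 0.431 for Mptx1, and 43.4% of the genes tested had a smaller one. For Mptx2 it was 2.09, and 99.2% of genes had a smaller one, against a median of 0.496 over all genes. Between the lowest and the highest early-weaned library Mptx1 varied 3.09-fold and Mptx2 394-fold. The lowest value of Mptx2 was that of EW+LNnT replicate 1, and without the 3 libraries apart Mptx2 varied 49.5-fold and Mptx1 3.09-fold. Deviations of the 2 genes from their group means showed no relation that passed the test over the 25 libraries (Pearson r = 0.03, permutation p = 0.892, and Spearman rho = 0.08, permutation p = 0.727).

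In all, 5 relations of this kind were examined with permutation tests within groups and adjusted together. Deviations of Mptx2 followed those of 26 Paneth cell products, taken as their mean log2 CPM (r = 0.62, permutation p = 0.00736, adjusted 0.0184), although the rank measure did not pass (rho = 0.42, permutation p = 0.0588, adjusted 0.147). They also followed those of 15 goblet cell genes (r = 0.48, permutation p = 0.00670, adjusted 0.0184), again without the rank measure (rho = 0.47, permutation p = 0.0173, adjusted 0.0863). Leaving out the 2 libraries farthest from the median gave r = 0.59 and 0.64. Both relations rest on the 3 libraries apart: without them r was 0.29 and 0.27, each with a permutation p adjusted to 0.324. Deviations of Mptx1 did not pass with either list (Paneth r = 0.26 and rho = 0.24, goblet r = -0.28 and rho = -0.15, with permutation p-values adjusted to 0.301 for both r and to 0.420 and 0.633 for rho). Their r without the 2 farthest libraries was 0.11 and -0.18. The Paneth mean was 4.66, 4.42 and 4.83 log2 CPM in the 3 libraries apart, below every other early-weaned library. It was 3.64 in Control replicate 4, which also had the lowest Mptx2 CPM of all, though not the lowest FPKM. Control replicate 2 went the other way. It had the most Mptx2 of the Control libraries, at 3.71 CPM, and a Paneth mean of 4.52, below Control replicates 1, 3 and 5.

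The genes whose levels were most like each paralog were ranked by Pearson's r of log2 CPM over 13265 genes with a mean of at least 1 CPM. As a description over all 25 libraries, Lyz1 stood first for Mptx2 (r = 0.92), followed by Pimreg, a mitotic gene (0.90), the defensin Defa29 (0.90), Lypd8, a secreted protein of the epithelium that binds flagellated bacteria (0.90), and the receptor Adgrd1 (0.89). Mptx2 was one of the least like Mptx1, at rank 12697 (r = -0.58). Rankings over all 25 libraries hold the step between Control and EW that chose the pair, so nothing is read from them. With group means removed, Mptx2 stood at rank 6009 for Mptx1 (r = 0.03). When group means were removed, Ang4, an angiogenin of Paneth cells with bactericidal activity, stood first for Mptx2 (r = 0.95), followed by Defa29 (0.93), E2f2 (0.91), Fam219b (0.91) and Cd72 (0.90). Without the 3 libraries apart these were 0.81 for Ang4, 0.71 for Defa29, 0.63 for E2f2, 0.61 for Fam219b and 0.65 for Cd72. Defensin genes are close copies of one another, so the level of Defa29 is uncertain.

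Ang4, picked by the ranking above for its likeness to Mptx2, shows where Mptx2 and 1 Paneth product went together and where they did not. Ang4 was 26.2, 26.5, 25.9, 12.9 and 42.2 CPM in Control replicates 1 to 5 and 14.5, 18.7, 36.6, 47.8 and 79.9 CPM in EW, in which its order of libraries is close to that of Mptx2. It was 4.67 CPM in EW+2'-FL replicate 1 and 5.34 and 10.3 CPM in EW+LNnT replicates 1 and 2, below all Control libraries, whereas Mptx2 in these 3 was within the range of Control. The library with the most Mptx2, EW+2'-FL replicate 2, also had the most Ang4, at 134 CPM, as were Lyz1 at 1663 CPM and Defa29 at 69.9 CPM. Between EW and Control, Ang4 differed by a log2 of 0.56 ± 0.62 (SE) and Lyz1 by 0.95 ± 0.36, beside 3.68 ± 1.11 for Mptx2.

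**Figure D4:**
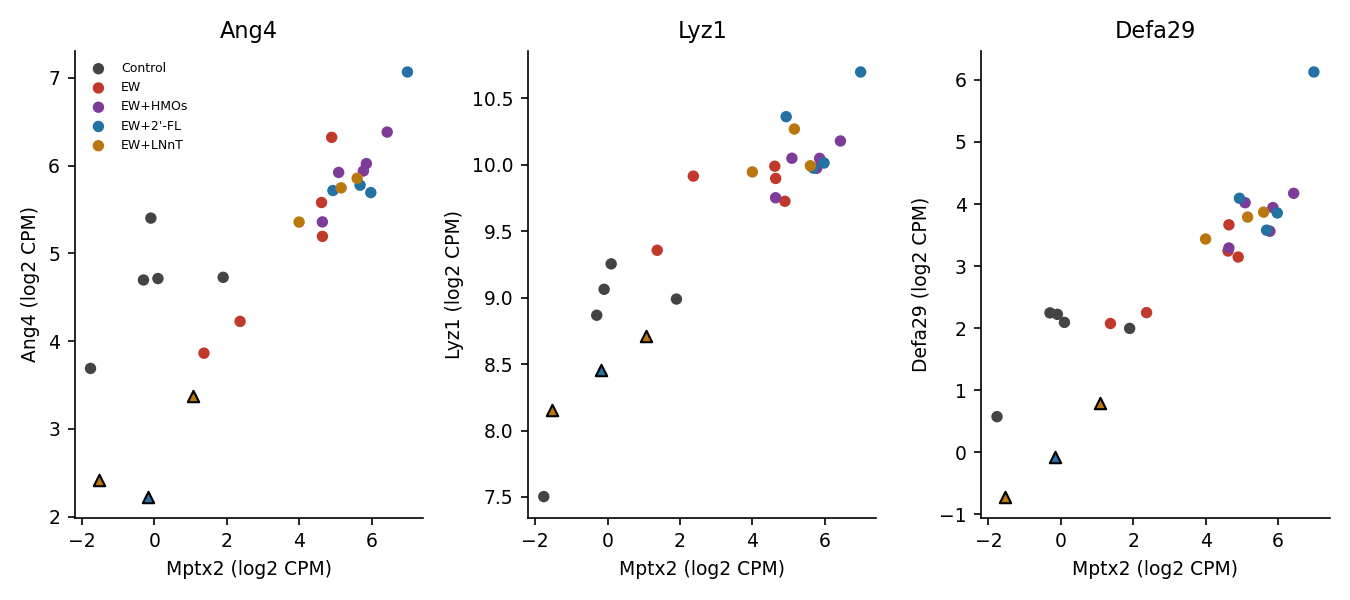
Log2 CPM of Ang4, Lyz1 and Defa29 against log2 CPM of Mptx2, 1 point per library, coloured by group. These genes were picked for their likeness to Mptx2. Triangles with black edges are EW+2'-FL replicate 1 and EW+LNnT replicates 1 and 2, which lie at the lower left of each panel; the Control libraries hold more Ang4 than these at similar Mptx2 levels.

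The genes most like Mptx1 over all 25 libraries were Mylk3, a myosin light chain kinase (r = 0.89), Aifm3 (0.88), Ccs, the copper chaperone of superoxide dismutase (0.88), Ass1, the argininosuccinate synthase of arginine synthesis (0.86), and Cyb5a, a cytochrome b5 (0.86). Each of the 5, like Mptx1, was higher in all Control libraries than in any early-weaned one. Ass1, for example, was 10.3 to 18.2 CPM in Control and at most 5.56 CPM in the early-weaned groups. A ranking over all 25 libraries picks genes with the step of Mptx1, so nothing is read from this. Once group means were removed, the closest were Rtn2 (0.76), Zfp105 (0.72), C1qtnf9 (0.67), Syt4 (0.67) and Gpx8 (0.67), with none of the first 5 among them.

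Other pentraxins were scarce in the jejunum. The table holds 7 of them, of which 5 had enough counts to be tested. None was called in any of the 10 pairs of groups, where 0% to 10.6% of all genes were. Their largest group mean was that of Nptx2, at 0.754 ± 0.150 FPKM in EW (n = 5). The serum pentraxin Crp averaged 0.127 ± 0.0309 FPKM in Control and 0.0471 ± 0.0328 in EW, and the inflammatory Ptx3 averaged 0.158 ± 0.0364 and 0.134 ± 0.0621. Apcs had 19 counts over all libraries and Ptx4 had 8, and neither was tested. In the EW contrast the log2 difference of Crp was -1.43 ± 0.78 and that of Ptx3 was -0.19 ± 0.59 (SE).

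The partners through which pentraxins act, C1q, complement and Fc receptors, numbered 19 listed and 17 tested. None was called in EW against Control, against 0.953% of all genes, or in EW+HMOs against Control, against 1.85%. In EW+2'-FL against Control, 5 were called lower and 1 higher, beside 1.48% and 1.07% of all genes. They were the C1q chains C1qa (-0.94 ± 0.18, SE), C1qb (-0.84) and C1qc (-0.62), the Fc receptor Fcgr4 (-1.67 ± 0.36), the signalling chain Fcer1g and, higher, the inhibitory receptor Fcgr2b (1.13 ± 0.25). In EW+LNnT against Control 4 were called lower, C1qa, C1qb, Fcgr4 and Fcer1g, beside 3.93% of all genes. The list median was -0.21 and -0.32 in these 2 contrasts, against 0.05 and -0.00 over all genes. Beside this, of 9 macrophage genes, which include C1qa, 2 were lower (C1qa and Cd68) and 1 higher (Cd163) in EW+2'-FL against Control, and the part of macrophage numbers was not tested. The mean log2 CPM of the partners was 3.03 in EW+2'-FL replicate 1 and 2.70 and 2.90 in EW+LNnT replicates 1 and 2, against 3.40 to 3.76 in Control, and it was 3.06 in EW+2'-FL replicate 3 and 3.01 in EW+LNnT replicate 4. That of the macrophage genes was 2.86, 2.51 and 2.94 in the same 3 libraries, and at least 3.42 in all others. Without these 3, the same number of partners was called in EW+2'-FL against Control, beside 1.85% of all genes lower and 1.26% higher. C1qa was among them, by -0.86 ± 0.16 (SE). In EW+LNnT against Control 3 were called lower, C1qa (-0.71 ± 0.17), C1qb and Fcer1g, beside 2.89% of all genes. With 22 libraries left, Fcgr4 was also called lower in EW (-1.03 ± 0.23) and EW+HMOs (-1.02) against Control, beside 2.74% and 3.99% of all genes. The complement component C2 was called higher in EW+HMOs (0.61), beside 3.68% of all genes.

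Paneth cells, the granule-bearing cells at the crypt base, are a known source of Mptx2. Of 26 Paneth cell products, 3 were called higher in EW than in Control, beside 0.443% of all genes: the phospholipase Pla2g2a (1.57 ± 0.26, SE), the defensin Defa22 (1.57 ± 0.35) and the defensin-processing protease Mmp7 (1.35 ± 0.32). The list median was 0.53, against 0.02 over all genes. Pla2g2a was also called higher in EW+HMOs (1.48), EW+2'-FL (1.42) and EW+LNnT (0.80) against Control, and Mmp7 in the first 2 (1.36 and 1.30). In EW+2'-FL the defensin Defa34 was higher as well (1.70 ± 0.42) and the lectin Reg4 lower (-0.81 ± 0.20), and Reg4 was also lower in EW+LNnT (-0.66 ± 0.20). That made 2 products called higher in EW+HMOs against Control, beside 0.917% of all genes. It made 3 higher and 1 lower in EW+2'-FL, beside 1.07% and 1.48%, and 1 higher and 1 lower in EW+LNnT, beside 6.68% and 3.93%. When the 3 libraries apart were left out, 5 products were called higher in EW against Control, beside 2.17% of all genes. In EW+HMOs 5 were higher and 1 lower, beside 3.68% and 3.99%. In EW+2'-FL 8 were higher and 1 lower, beside 1.26% and 1.85%, and in EW+LNnT 4 were higher, beside 3.49%. Lyz1 was among those higher in all 4 contrasts then, by 0.94 to 1.44. No Paneth product was called in any pair of early-weaned groups, where 0% to 0.416% of all genes were. Of 10 secretory lineage factors, among them Sox9 and Atoh1, none was called in any pair of groups, where 0% to 10.6% of all genes were.

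Secreted lectins of the gut, like pentraxins, bind microbial sugars at the mucosa. Of 14 tested, 3 were called higher in EW than in Control, beside 0.443% of all genes: the bactericidal lectins Reg3b (4.58 ± 0.64) and Reg3g (4.51 ± 0.69), and Mbl2, a mannose-binding lectin that starts complement activation (2.60 ± 0.61). Reg3b and Reg3g are close copies of each other, and their values are uncertain for the same reason as those of the Mptx pair. They were higher in every supplemented group against Control as well, Reg3b by 5.78, 5.93 and 4.35 in EW+HMOs, EW+2'-FL and EW+LNnT. In EW+HMOs these 2 were the lectins called higher, beside 0.917% of all genes, and 0 were called lower. Other lectins were lower in the remaining groups. In EW+2'-FL against Control these were Reg4 and the goblet cell lectin Zg16 (-1.43 ± 0.35). That made 2 higher and 2 lower, beside 1.07% and 1.48% of all genes. In EW+LNnT against Control they were Reg4, Reg3a (-1.23 ± 0.35) and the galectin Lgals2 (-0.79 ± 0.25). That made 2 higher and 3 lower, beside 6.68% and 3.93% of all genes. Reg3b and Reg3g were called higher in all 4 groups against Control without the 3 libraries apart as well, and then no lectin was called lower in EW+LNnT. Of all genes, 2.17%, 3.68%, 1.26% and 3.49% were then called higher in EW, EW+HMOs, EW+2'-FL and EW+LNnT, and 2.89% lower in EW+LNnT. Of 12 other acute phase genes tested, none was called in EW against Control, where 0.953% of all genes were. All 12 estimates were above 0 there, with a median log2 difference of 0.80 against 0.02 over all genes. The median was -0.87 in EW+HMOs against EW, against -0.02 over all genes, and none was called, beside 0% of all genes. Beside 1.07% and 6.68% of all genes, Serpina3n in EW+2'-FL (1.75 ± 0.46) and Socs3 in EW+LNnT (1.36 ± 0.41) were called higher against Control. Neither call was made without the 3 libraries apart, and Serpina3n was called higher in EW (1.58 ± 0.43), beside 2.17% of all genes.

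Among the chromosomal neighbours, 1 gene passed the test, in 1 contrast. Of the 20 genes between Mptx2 and Mptx1, 15 were tested and none was called in any of the 10 pairs of groups. The share of all genes called in these pairs was 0% to 10.6%. Ackr1, beside Mptx2, was called in none either, and Or6p1, beside Mptx1, was too low to be tested. The gene that passed was the olfactory receptor gene Or10j2, whose end lies 387 bases from Mptx2 on the other strand. It had 0 counts in all 5 Control libraries, 112 in EW+2'-FL replicate 2, where Mptx2 had 11822, then 40 in EW+2'-FL replicate 4, 32 in EW+LNnT replicate 3 and 31 in EW+LNnT replicate 5. It was called in EW+LNnT against Control alone (edgeR adjusted p = 0.0465). Whether counting used strand was not given in the sources used here, so reads of Or10j2 and of Mptx2 transcripts running past the annotated end cannot be told apart.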

How the data were processed

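RNA was measured in 25 jejunal libraries. Per the labels' protocols, poly(A) RNA was made into dUTP-stranded libraries and sequenced as 150-base pairs. The submitters' processing notes name GRCm39 and the tools HISAT2 2.2.1, cutadapt 1.9, edgeR, DESeq2 and StringTie 2.1.6, with no roles; no annotation release or counting program is named. The deposited tables hold counts per gene, not normalized, and FPKM, in which the authors took account of length and depth. Mptx1, Mptx2 and the gene lists were chosen with earlier results of these data known.

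Counts of 22131 of 57132 genes passed filterByExpr by group and held 99.98% of all counts. They were fitted with edgeR 4.0.16 in R 4.3.3 (TMM scaling, robust quasi-likelihood, 1 mean per group, all 25 libraries in 1 fit, Benjamini-Hochberg adjustment, threshold 0.05). CPM were scaled by TMM, and log2 CPM used a prior count of 2. Relations were tested on deviations from group means with 100000 permutations within groups in numpy 2.4.6. Genes named beside the 2 paralogs were other pentraxins with a count, called list genes with the smallest p, the 5 most alike by r, and chromosomal neighbours. Alternatives were DESeq2 1.42.0 and its size factors, limma 3.58.1 on log2(FPKM + 1) and log2(FPKM + 0.1), no filter on low counts, 2 groups alone, a replicate block, the Y-linked share as covariate, libraries left out singly, the 3 libraries apart left out, and the 5 libraries with over 0.1% pancreatic counts left out. The counts of list genes, the ranges and the likeness values without the 3 libraries apart were added after seeing the data. Sequences were aligned with Biopython 1.88. The fits were tested on simulated data.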

Additional observations from a re-analysis of the deposited data

Results flagged for a closer look

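Within Control, Mptx2 in replicate 2 lay far above the other 4 libraries, at 3.71 CPM and 4.44 FPKM. This is also the Control library with both Xist and Y-linked transcripts. In EW+2'-FL, Mptx2 in replicate 1 lay far below the other 4 libraries on the log2 CPM scale, at -0.17. It is one of the 3 libraries that stood apart. Dixon's criterion, which picked out these values, marks about 1 group in 20 by chance.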

How the results depend on the processing

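No alternative turned the direction of a called difference of Mptx1 or Mptx2, and the Mptx1 calls against Control were kept in all. For Mptx2 in EW+LNnT against Control, the call was lost with no filter (3.90, edgeR adjusted p = 0.0588), with limma on log2(FPKM + 1) (2.32, 0.142) and on log2(FPKM + 0.1) (2.73, 0.148), with the 2 groups alone (3.93, 0.0524) and without the libraries over 0.1% pancreatic counts (4.48, 0.0518). In EW+2'-FL against Control it was lost with limma on log2(FPKM + 0.1) (4.63, adjusted p = 0.0510). Mptx1 in EW against Control was -2.28 on log2(FPKM + 1), a scale on which the pseudocount lowers the difference of low genes. The Paneth relation of Mptx1 rose to r = 0.51 on FPKM (permutation p adjusted to 0.0397); the cause was not tested. Without the 3 libraries apart, the Paneth and goblet relations of Mptx2 fell to r = 0.29 and 0.27.

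With each library left out in turn, Mptx2 against Control ranged from 4.99 to 6.09 in EW+HMOs, 4.75 to 6.17 in EW+2'-FL and 3.32 to 4.76 in EW+LNnT. The Paneth relation of Mptx2 ranged from r = 0.50 to 0.68, its call being lost without EW+2'-FL replicate 1, EW+LNnT replicate 1 or Control replicate 4. The goblet relation ranged from 0.37 to 0.60, its call being lost without the first 2 of these. Counts of all genes called moved more. With each library left out in turn, EW against Control gave 58 to 530 (211 as reported), EW+HMOs 169 to 369 (410), EW+2'-FL 191 to 1452 (563) and EW+LNnT 700 to 2813 (2348). The other alternatives gave 57 to 1638, 167 to 4966, 123 to 1329 and 261 to 3522 in the same order.

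Same-numbered libraries of different groups had correlations of deviations from -0.27 to 0.50, and 5 of 25 libraries correlated best with their own number. The labels do not say whether the numbers pair the samples, and these correlations cannot settle it. With a replicate block, Mptx2 in EW+LNnT against Control was 3.58 (edgeR adjusted p = 0.0889), and no other call of the 2 genes changed. Depth limits the lowest values most: Mptx2 rests on 16 counts and Mptx1 on 35 in EW+LNnT replicate 1.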
